A study of Mus musculus with 10 samples.

Results

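Transcripts of the proteasome and the immunoproteasome were examined in the aortic arch of mice lacking apolipoprotein E and MyD88, set against mice lacking apolipoprotein E alone. The genes were those whose symbol in the array annotation starts with Psma, Psmb, Psmc, Psmd or Psme, which gave 42 genes on 45 probes, of 11130 genes with a single symbol on the array. Ratios in at least 3 mouse pairs were available for 35 of them, or 83.3%, against 4299 genes or 38.6% of all. Of the 35, 31 are proteasome subunits or members of the PA28 activator. The other 4 are the activator gene Psme3, the assembly chaperone gene Psmd10, the pseudogene Psmb5-ps and Psmc3ip, a meiotic recombination factor that is not a proteasome subunit.

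The proteasome degrades proteins tagged with ubiquitin. Its 20S core is built of rings of alpha subunits, which form the gate, and beta subunits, of which Psmb5, Psmb6 and Psmb7 carry the catalytic sites, and the 19S cap holds ATPases that unfold the substrate and other subunits that bind ubiquitin and remove it. Interferon-gamma induces Psmb8, Psmb9 and Psmb10, which take the places of Psmb5, Psmb6 and Psmb7 in the immunoproteasome, and also Psme1 and Psme2, which form the PA28 cap. Immunoproteasomes are abundant in leukocytes and yield peptides suited to MHC class I, so in an atherosclerotic vessel these genes are read beside macrophage and interferon-response genes.

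Both genotypes were apoE-null: the double-null mice were ApoE-/-,MyD88-/- and the comparison mice ApoE-/-. MyD88 is an adaptor that couples interleukin-1 receptors and most Toll-like receptors to their kinases. A high fat diet for 8 weeks is stated on 8 of the 10 arrays, and the other arrays hold mice that also appear on those 8. The sources used here give neither ages nor strain background, and connective tissue was cleaned off the arch before RNA was taken. Each of 5 pairs, with 1 mouse of each genotype, was hybridised on 2 two-colour arrays with the dyes exchanged, and the mean of both arrays is 1 replicate (n = 5 pairs). The mice were female in pair 1 and male in pairs 2 to 4, while in pair 5 the double-null mouse was male and the apoE-null mouse female. All values below are log2 ratios of double-null over apoE-null; they carry no level, so genes cannot be ranked by abundance.

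Arrays gave between 4581 and 7057 values for 13872 probes. Myd88, the disrupted gene, had log2 ratios of -1.06, -0.57, -0.81, -1.15 and -0.90 in pairs 1 to 5 and was lower in every pair (mean -0.90 ± 0.22, SD, n = 5 pairs, limma adjusted p = 0.0269). Its call was lost with any single pair left out, at limma adjusted p of 0.0558 to 0.124, and where its probe lies relative to the deletion is unknown here. The labels of pair 1 exchange mouse numbers 7 and 8 between the genotypes on its 2 arrays; the genotype labels were followed, and treating these arrays as a dye swap of the same mice is an assumption. The partner arrays of this pair correlated at r = 0.56 across 5003 probes, against 0.04 to 0.46 in the other pairs. Of the smooth muscle markers 6 of 7 on the array gave ratios in 3 or more pairs, Acta2, Myh11 and Tagln among them, and of the endothelial markers 6 of 7, including Pecam1 and Tie1, with medians of -0.17 and -0.08, so markers of the vessel wall were measured.

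No proteasome gene passed the test. Over all genes limma called 35 of 4299 at adjusted p under 0.05, which is 0.814%, and among the 35 proteasome genes tested it called 0, with 0.448 as the smallest adjusted p. At an unadjusted p under 0.05 there was 1 gene, Psmc3ip, against 9.47% of all genes. The mean log2 ratios lay between -0.22 and 0.33, 17 of 35 above 0, against 41.7% of all genes above 0. A single sign in every measured pair was found for 4 of 35, against 13.5% of all genes. The median absolute mean was 0.096, against 0.14 over all genes, and the median SD between pairs was 0.25, against 0.30.

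The differences were bounded by limma's moderated intervals, which draw on the spread of all genes. Psmb2 and Psmb7 had the largest SD between pairs, 0.44 and 0.42. Intervals from each gene's own spread alone were not computed. For Psmb2 and Psmb7 they would be wider, so the next statement holds for limma's moderated intervals only. For every one of the 31 subunits and PA28 genes the 95% interval of the mean, unadjusted for the number of genes, lay inside 1.5-fold in both directions, which was so for 67.5% of all genes. This bound was chosen after the values were seen. The widest bounds were 1.42-fold lower, for Psma7, and 1.44-fold higher, for Psmb7. With single pairs left out between 25 and 30 of the 31 stayed inside it, fewest without pair 4. A missed test does not show that the genotypes were alike.

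**Figure D1:**
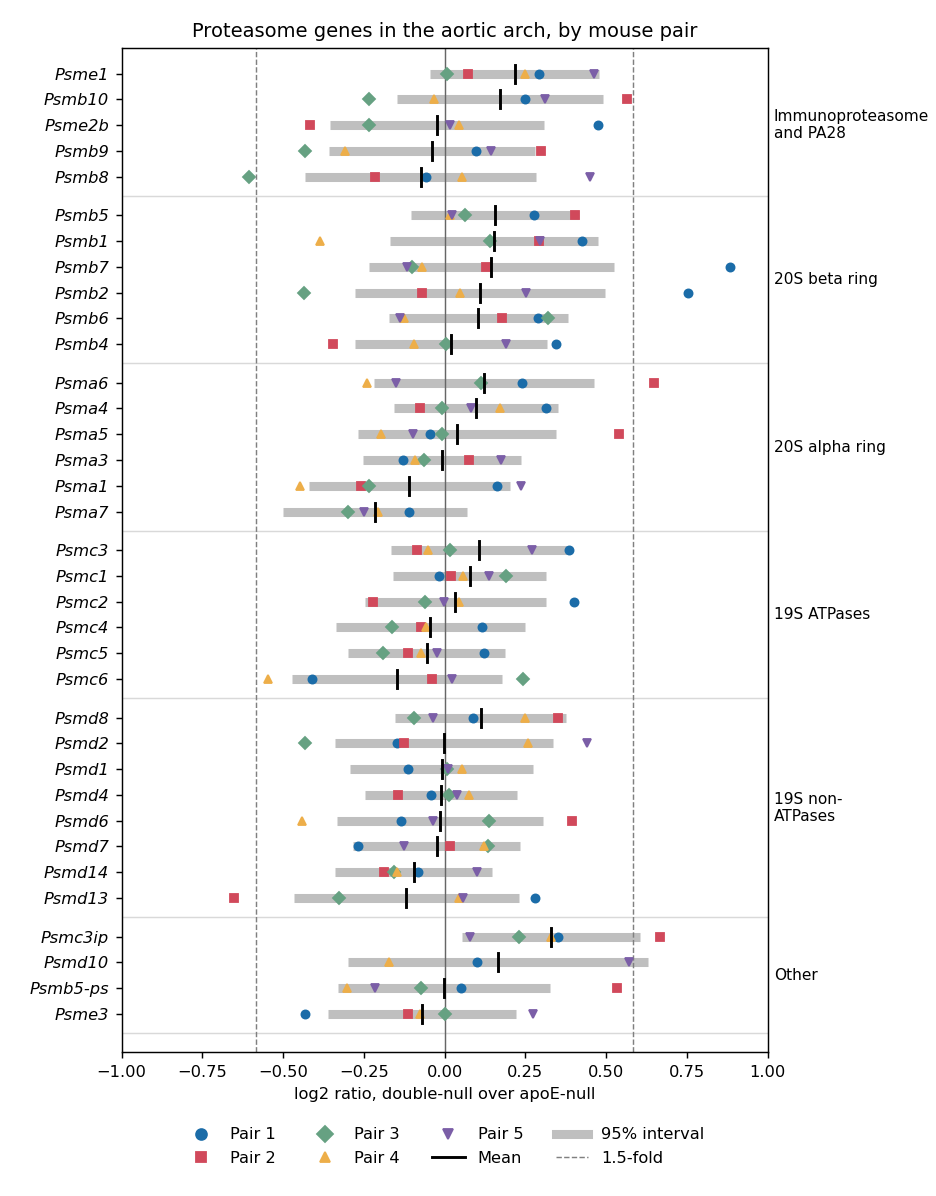
Log2 ratios of double-null over apoE-null for the 35 proteasome genes tested, 1 row a gene, grouped by role and sorted by mean. Symbols are the 5 mouse pairs, black ticks the means and grey bars limma's moderated 95% intervals. The intervals of all 31 subunits and PA28 genes lie between the dashed lines at 1.5-fold, and symbols of most genes fall on both sides of 0.

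The inducible subunits showed no common direction. Psmb8, the inducible chymotrypsin-like subunit, had log2 ratios of -0.06, -0.21, -0.61, 0.05 and 0.45 in pairs 1 to 5. It was thus lower in 3 pairs and higher in 2, with pair 3 lowest and the pair of unlike sex highest (mean -0.07 ± 0.39, SD, n = 5 pairs, 95% interval -0.43 to 0.28, limma adjusted p = 0.876). Psmb9, encoded near Psmb8 in the MHC, had log2 ratios of 0.10, 0.30, -0.43, -0.31 and 0.14. Pairs 3 and 4 were lower and the others higher (mean -0.04 ± 0.31, SD, n = 5 pairs, 95% interval -0.36 to 0.28, limma adjusted p = 0.930). Psmb10, the third inducible catalytic subunit, had log2 ratios of 0.25, 0.57, -0.24, -0.03 and 0.31, again with pairs 3 and 4 below 0 (mean 0.17 ± 0.31, SD, n = 5 pairs, 95% interval -0.15 to 0.49, limma adjusted p = 0.676). Psmb10 has 2 probes, which differed on single arrays: on the pair 3 array with double-null RNA in channel 1 they read -0.11 and -0.93, and on its partner -0.54 and 0.65. Each probe alone averaged 0.10 over its own pairs, the second over 3 pairs. The gene mean of 0.17 is above both because the second probe enters only pairs 1, 3 and 4. With the probe of most values alone the mean was 0.105.

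Of the PA28 genes only Psme1 had a single sign. Psme1, the alpha subunit of the cap, had log2 ratios of 0.29, 0.07, 0.01, 0.25 and 0.46, above 0 in all 5 pairs though in pair 3 only just (mean 0.22 ± 0.18, SD, n = 5 pairs, 95% interval -0.05 to 0.48, limma adjusted p = 0.565). In pairs 1 to 3 the dye orientations had opposite signs, and in pairs 4 and 5 both were above 0: with double-null RNA in channel 1 the arrays read 0.76, 0.23, 0.19, 0.45 and 0.72 in pairs 1 to 5, and with it in channel 2 they read -0.17, -0.09, -0.17, 0.05 and 0.20. The beta subunit gene Psme2 is represented by probes that the annotation assigns to Psme2b, a close copy of it, and the array may not tell them apart. Psme2b had log2 ratios of 0.47, -0.42, -0.24, 0.04 and 0.02, highest in the female pair (mean -0.02 ± 0.34, SD, n = 5 pairs, 95% interval -0.35 to 0.31, limma adjusted p = 0.960). Its 2 probes averaged -0.02 and -0.03.

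The constitutive catalytic subunits were compared with their inducible counterparts within each pair. Psmb5, the site that Psmb8 replaces, had log2 ratios of 0.28, 0.41, 0.06, 0.02 and 0.02, above 0 in 5 pairs (mean 0.16 ± 0.18, SD, n = 5 pairs, limma adjusted p = 0.648). Psmb6, the caspase-like site, had log2 ratios of 0.29, 0.18, 0.32, -0.13 and -0.14 (mean 0.10 ± 0.22, SD, n = 5 pairs). Psmb7, the trypsin-like site, had log2 ratios of 0.88, 0.13, -0.10, -0.07 and -0.12, so that its mean of 0.14 ± 0.42 (SD, n = 5 pairs) rested on pair 1 and was -0.04 without it. The 3 constitutive means were thus above 0, as were those of the other measured constitutive beta subunits and of 41.7% of all genes.

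For each inducible subunit the mean difference from its counterpart was smaller than the SD between pairs. Psmb8 minus Psmb5 gave differences of log2 ratios of -0.33, -0.62, -0.67, 0.04 and 0.43 in pairs 1 to 5, with a mean of -0.23 ± 0.46 (SD, n = 5 pairs, 95% interval -0.81 to 0.34; exact sign-flip permutation test, two-sided, p = 0.375). The means were -0.14 ± 0.40 for Psmb9 minus Psmb6 (95% interval -0.64 to 0.35, exact p = 0.5625) and 0.03 ± 0.45 for Psmb10 minus Psmb7 (95% interval -0.53 to 0.58, exact p = 0.9375), each SD with n = 5 pairs. Adjusted over the 3 comparisons the exact p-values were 0.844, 0.844 and 0.938. Where each gene was read from its probe of most values, Psmb10 minus Psmb7 was -0.04, so its sign rested on the averaging of probes. The smallest p that this exact test allows with 5 pairs is 0.0625. Pair 5, of unlike sex, had all 3 differences above 0, at 0.43, 0.28 and 0.43, and pair 3 had all 3 below 0, at -0.67, -0.75 and -0.13. Across the proteasome probes the partner arrays correlated at r = -0.05 in pair 5 and -0.21 in pair 3.

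**Figure D2:**
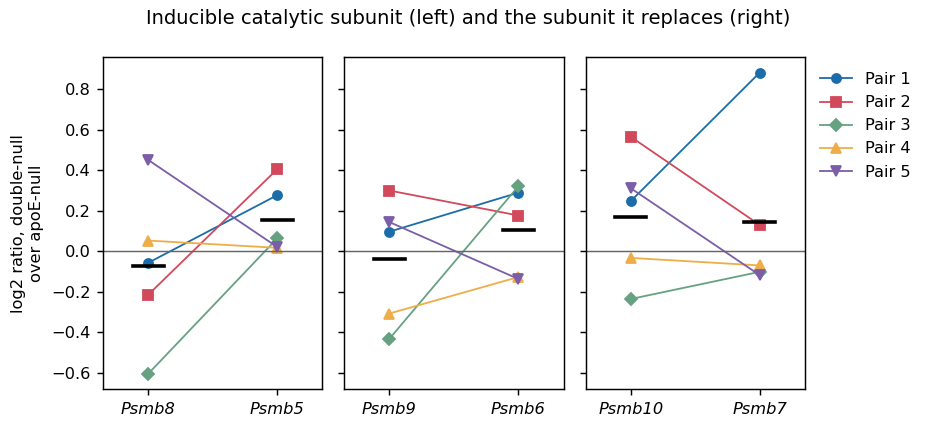
Log2 ratios of double-null over apoE-null for each inducible catalytic subunit on the left and the constitutive subunit it replaces on the right. Lines join the values of 1 mouse pair and black bars are means; lines slope up in some pairs and down in others in every panel, and the mean differences are -0.23, -0.14 and 0.03.

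As groups, the 5 inducible genes and the constitutive subunits both lay near 0. The median of gene means was -0.02 for the 5 inducible genes and 0.01 for 26 constitutive subunits, against -0.04 for all genes tested. By pair, the median of the inducible genes was 0.25, 0.07, -0.24, 0.04 and 0.31, and that of the constitutive subunits 0.12, -0.05, -0.01, -0.06 and 0.02. The difference between the medians was 0.13, 0.13, -0.23, 0.11 and 0.29 in pairs 1 to 5, above 0 in 4 of 5, with a mean of 0.09 ± 0.19 (SD, n = 5 pairs). This sign is opposite to that of the difference between the medians of gene means, -0.03, and both are smaller than the spread between pairs.

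Promoter sequences are shown because interferon elements are what is known to make the inducible genes respond. Sequences from RefSeq (build GRCm38.p6), in windows of 250 bases before and 50 after the start site, were found for 34 of the 42 genes. Both strands were searched for the interferon-gamma activated site TTCNNNGAA and the interferon-stimulated element, taken as GAAA and GAAA with 2 bases between them. They were also searched for TGACNNNGC, the core of the element bound by NFE2L1 and NFE2L2. NFE2L1 drives constitutive subunits when proteasome activity is short. The stretches with a match in an inducible gene and in a constitutive catalytic subunit are given 5′ to 3′ on the gene's strand with the match in capitals; Psmb7 was not searched.
Psmb8, chr17:34198052-34198151, plus strand: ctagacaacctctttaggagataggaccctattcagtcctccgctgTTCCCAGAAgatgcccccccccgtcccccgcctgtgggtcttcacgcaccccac
Psme1, chr14:55578493-55578522, plus strand: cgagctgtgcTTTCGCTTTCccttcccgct
Psmb5, chr14:54617996-54618095, minus strand: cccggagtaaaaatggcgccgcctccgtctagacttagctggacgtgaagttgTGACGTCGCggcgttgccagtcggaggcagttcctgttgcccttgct
Psmb6, chr11:70525257-70525356, plus strand: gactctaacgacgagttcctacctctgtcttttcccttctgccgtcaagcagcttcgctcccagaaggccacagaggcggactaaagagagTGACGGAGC
The match in Psmb8 starts 97 bases before the start site and that in Psme1 at base 10 after it, where it reads as the reverse complement of the stimulated element. Those in Psmb5 and Psmb6 start 47 and 9 bases before it. The windows of Psmb9, Psmb10, Psme2 and Psme2b held neither interferon motif in these letters. The inducible genes, Psme2 and Psme2b included, had 7 windows. Of these 1 held the activated site, 1 the stimulated element and 0 the NFE2L1 and NFE2L2 core. Of the 26 windows of constitutive subunits, 1 held the activated site, 2 the stimulated element and 4 the NFE2L1 and NFE2L2 core. Over 32851 windows of all genes the shares were 8.30%, 3.44% and 12.4%. None of these counts was tested. Psmb8 and Psme1, the inducible genes with a match, had mean log2 ratios of -0.07 and 0.22, and Psmb5 and Psmb6 had 0.16 and 0.10, none past the test.

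Among the constitutive subunits the beta ring had means above 0 and the non-ATPase part of the 19S cap mostly just below it, both without a call. Of all genes 41.7% had means above 0. The contrast between the 2 classes was not tested, and Psmb4 averaged -0.06 without pair 1. All 6 measured beta subunits had positive means, from 0.02 for Psmb4 to 0.16 for Psmb5, with a median of 0.13 and pair medians of 0.39, 0.15, 0.03, -0.08 and 0.11. Psmb2 had log2 ratios of 0.75, -0.07, -0.43, 0.05 and 0.25, the highest in pair 1 as for Psmb7. Psmb1, with both of its probes, had log2 ratios of 0.42, 0.29, 0.14, -0.39 and 0.30, below 0 in pair 4 only. Of 6 alpha subunits 3 were above 0, with a median of 0.02. Psma6 was the highest (log2 ratios of 0.24, 0.65, 0.11, -0.24 and -0.15, mean 0.12 ± 0.35, SD, n = 5 pairs). The other alpha subunits had means of 0.10 for Psma4, 0.04 for Psma5, -0.01 for Psma3 and -0.11 for Psma1. Psma7, an alpha subunit, was the lowest of all 35, with log2 ratios of -0.11, -0.30, -0.21 and -0.25 in pairs 1, 3, 4 and 5, below 0 in 4 of 4 measured pairs (mean -0.22 ± 0.08, SD, n = 4 pairs, 95% interval -0.50 to 0.07, limma adjusted p = 0.582).

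The subunits of the 19S cap lay close to 0. The median SD between pairs was 0.16 for the 6 ATPases and 0.18 for the 8 non-ATPase subunits, against 0.28 for the 12 constitutive 20S subunits, and the lowest of the cap were 0.072 for Psmd1, measured in 4 pairs, and 0.085 for Psmd4, the ubiquitin receptor, and for Psmc1. Psmd4 had log2 ratios of -0.04, -0.14, 0.01, 0.07 and 0.04, all within 0.14 of 0. Of the ATPases 3 of 6 were above 0, from Psmc6 at -0.15 ± 0.32 to Psmc3 at 0.11 ± 0.21 (SD, n = 5 pairs), and between them lay Psmc1 at 0.08, Psmc2 at 0.03, Psmc4 at -0.04 and Psmc5 at -0.06. Of the non-ATPase subunits 1 of 8 was above 0, Psmd8 at 0.11 ± 0.19 (SD, n = 5 pairs), and Psmd13 was lowest at -0.12 ± 0.37 (SD, n = 5 pairs) with values from -0.65 in pair 2 to 0.28 in pair 1. Psmd14, the deubiquitinase of the cap, had log2 ratios of -0.08, -0.19, -0.16, -0.15 and 0.10, below 0 in pairs 1 to 4 (mean -0.10 ± 0.12, SD, n = 5 pairs, limma adjusted p = 0.753). In pairs 1 to 3 its dye orientations had opposite signs. It averaged 0.03 with double-null RNA in channel 1 and -0.22 with it in channel 2. The scaffold subunits Psmd1 and Psmd2 averaged -0.01 and 0.00, and Psmd6 and Psmd7 averaged -0.02 each. The median of the non-ATPase subunits was -0.01, above that of all genes, -0.04. The sign of means this near 0 depends on how the arrays are centred.

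Genes outside the subunits included the one with the smallest p. Psmc3ip, which acts in meiotic recombination and is no part of the proteasome, had log2 ratios of 0.35, 0.67, 0.23, 0.33 and 0.08, above 0 in 5 of 5 pairs (mean 0.33 ± 0.22, SD, n = 5 pairs, limma adjusted p = 0.448), and averaged 0.31 and 0.35 in the dye orientations. Psme3, the nuclear PA28 gamma, had -0.07 ± 0.25 (SD, n = 5 pairs), and Psmb5-ps, a pseudogene related to Psmb5, had 0.00 ± 0.33 (SD, n = 5 pairs). Psmd10, a chaperone of 19S assembly also known as gankyrin, just met the minimum of 3 pairs, with log2 ratios of 0.10, -0.17 and 0.57 in pairs 1, 4 and 5. Just outside it were Psma2, with pair values of 0.05 and 0.00, and Psmd12, with 0.49 and -0.43. Psmb3 and Psmd9 had 1 pair value each and Psmd3 none, and Psma8 and Psme4 had no value on any array.

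The dye orientations often read differently. The mean ratios of the orientations had opposite signs for 18 of 35 genes, or 51.4%, against 41.4% of all genes. With double-null RNA in channel 1 Psmb5 read 0.79, 0.66, 0.63, 0.16 and 0.19 in pairs 1 to 5, and with it in channel 2 it read -0.24, 0.15, -0.51, -0.12 and -0.15, which are means of 0.49 and -0.17. Psme1 averaged 0.47 and -0.04, Psmc3 0.32 and -0.11, and Psmb8 0.12 and -0.27. A dye effect passed limma's test for 0 of the 35, against 4.82% of all genes, with Psmb5 (adjusted p = 0.0513) and Psme1 (adjusted p = 0.0891) nearest. Between the arrays of a pair, the proteasome probes had the same sign in 61.0% and 73.5% of cases in pairs 1 and 2, and in 43.6%, 48.7% and 52.8% in pairs 3, 4 and 5. Over all probes the shares were 66.7% and 67.3% in pairs 1 and 2, and 48.5%, 63.3% and 61.4% in pairs 3, 4 and 5. The proteasome share was thus below that of all probes in pairs 1, 3, 4 and 5 and above it in pair 2, differences that were not tested. Partner arrays correlated across the proteasome probes at r = 0.42, 0.68, -0.21, 0.22 and -0.05 in pairs 1 to 5. Over all probes r was 0.56, 0.31, 0.04, 0.19 and 0.46.

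**Figure D3:**
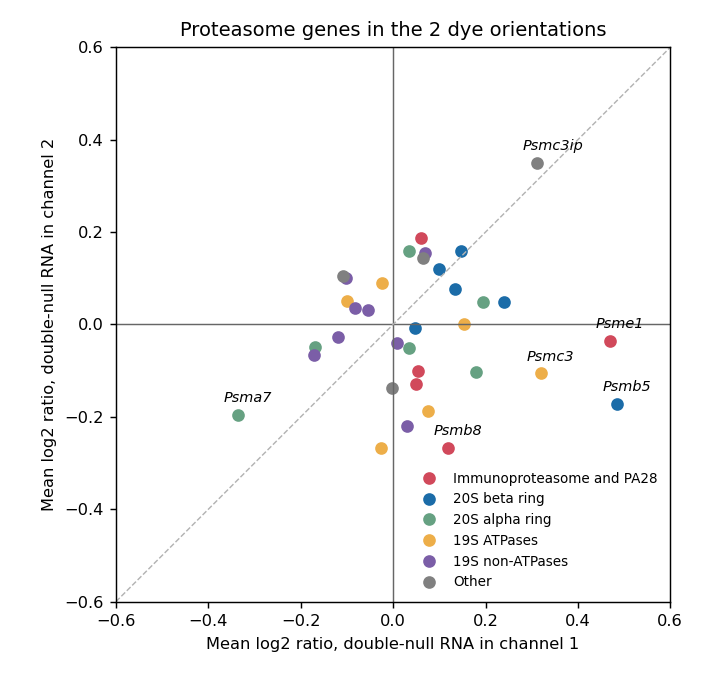
Mean log2 ratio of double-null over apoE-null where channel 1 (horizontal) or channel 2 (vertical) held the double-null RNA, 1 point a gene, coloured by role. Points on the dashed diagonal read alike in both orientations, as Psmc3ip does at 0.31 and 0.35; Psmb5 lies at 0.49 and -0.17 and Psme1 at 0.47 and -0.04.

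No difference by sex of the pair passed the test. Of 34 proteasome genes tested for pair 1 minus pairs 2 to 4, limma called 0, against 0.149% of all genes, with Psmb7 nearest (log2 difference 0.90, adjusted p = 0.228). With a single female pair each gene's spread here comes from the male pairs alone, moderated by limma with that of all genes. In pair 1, 19 of 31 subunits and PA28 genes were above 0, or 61.3%, against 42.2% of all genes, and in pair 5, 20 of 30 were, or 66.7%, against 43.4%. In pairs 2, 3 and 4 the shares were 48.3%, 41.9% and 45.2%, against 46.6%, 49.7% and 44.8% of all genes.

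In 3 other lists of the ubiquitin-proteasome pathway no measured gene was called. Of 4 assembly genes of the 20S core, Psmg1, Psmg2, Psmg3 and Pomp, 0 passed, and Psmg1 was highest with log2 ratios of 0.74, 0.45, -0.01, -0.12 and 0.02. Of 6 partners and regulators with ratios, of 12 on the array, 0 passed. Among them were Sem1, a small 19S subunit whose symbol falls outside the Psm names, at 0.30 ± 0.62 (SD, n = 4 pairs), the ATPase Vcp at 0.01 ± 0.18 and the transcription factor Nfe2l1 at -0.03 ± 0.33 (SD, n = 5 pairs). Of 13 genes of ubiquitin and its conjugation, of 14 on the array, 0 passed, 5 were above 0, and the median was -0.08. In all 3 lists 0 genes had an unadjusted p under 0.05. The conjugating enzyme genes with the smallest p were Ube2h at 0.23 ± 0.24, Ube2e1 at -0.17 ± 0.13 and Ube2a at -0.15 ± 0.10 (SD, n = 5 pairs).

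The class I loading and interferon-response genes had lower medians than the inducible subunits, a difference that was not tested. All 8 measured genes of MHC class I peptide loading had negative means, with a median of -0.20 against -0.02 for the 5 inducible proteasome genes, and 0 passed the test or had an unadjusted p under 0.05. Tap1, the peptide transporter gene beside Psmb9, had log2 ratios of -0.42, 0.17, -0.21, -0.35 and -0.30, below 0 in 4 of 5 pairs (mean -0.22 ± 0.23, SD, n = 5 pairs, limma adjusted p = 0.579). H2-T23, a non-classical class I gene, had -0.34 ± 0.36 and the classical H2-D1 -0.30 ± 0.30 (SD, n = 5 pairs). Of 12 interferon-response genes 9 had negative means, with a median of -0.08. Of all 4299 genes tested 2506 had negative means, with a median of -0.04. Socs1, an inhibitor of cytokine signalling, was called higher (log2 0.81 ± 0.24, SD, n = 5 pairs, limma adjusted p = 0.0322), but it also had a dye effect (limma adjusted p = 9.83e-07), and without pair 3 or without pair 4 no gene at all was called. Stat2 had -0.29 ± 0.23 and Irf8 -0.45 ± 0.60 (SD, n = 5 pairs), and neither passed.

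Macrophage and adipocyte markers had medians farther from 0, without a call. Of 19 macrophage markers 18 had negative means, against 2506 of all 4299 genes tested. Their median was -0.42, with pair medians of -1.08, -0.38, -0.68, -0.38 and 0.24. None passed over all genes, though 10 had an unadjusted p under 0.05 in limma's test, against 9.47% of all genes. Fewer cells of a type and less RNA per cell cannot be told apart in such tissue. The median of the inducible proteasome genes was 0.25 in pair 1 and -0.24 in pair 3, the pairs where the macrophage markers were lowest, and 0.31 in pair 5, where those markers were above 0. Of 4 B cell markers 3 were below 0, and of the T cell markers on the array 1 of 9, Cd4, was measured, at 0.07 ± 0.17 (SD, n = 5 pairs). By pair the median of 5 adipocyte markers was 2.39, -0.03, -0.26, 1.18 and -0.56. That of the constitutive 20S subunits was 0.28, 0.13, -0.01, -0.11 and 0.05. Both were highest in pair 1, and in pairs 2, 4 and 5 they had opposite signs. The part of cell composition in the proteasome ratios was not tested.

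**Figure D4:**
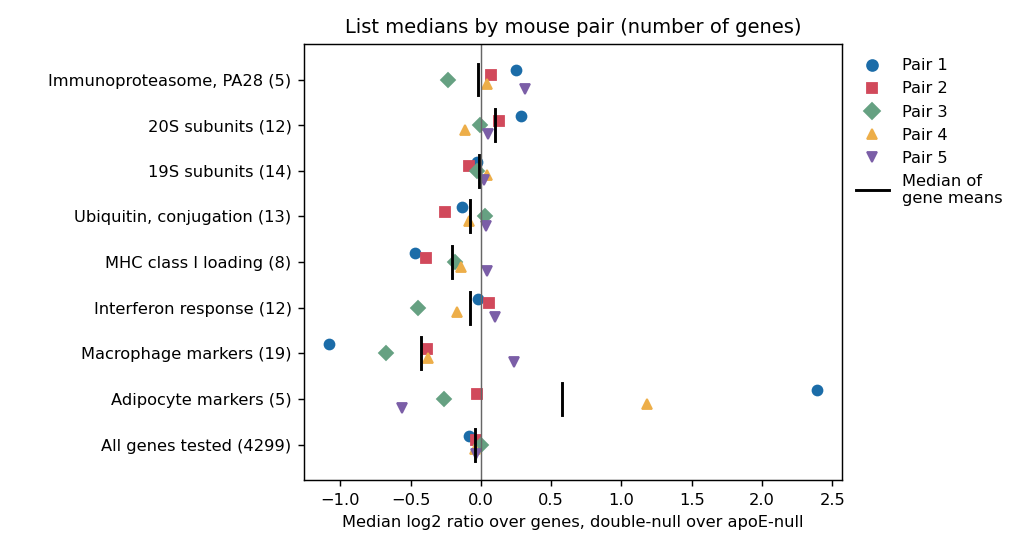
Median log2 ratio of double-null over apoE-null over the genes of each list (number of genes in brackets), by mouse pair (symbols), with the median of gene means as a black tick. The 3 proteasome lists drawn (the inducible genes, the 20S and the 19S subunits) stay between -0.24 and 0.31 in every pair, while macrophage markers reach -1.08 and adipocyte markers 2.39 in pair 1.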

How the data were processed

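RNA of the aortic arch was amplified with T7 polymerase and hybridised on 10 two-colour arrays, for which the labels' descriptions name a GenePix scanner and GeneSpring. The values the authors deposited are log2 ratios, apoE-null over double-null per the labels' titles. The sources used here do not give their normalization, the reason for blank cells or the signal over background. Here signs were turned, the arrays of a pair were averaged as dye swaps of the same mice (both needed), probes with 3 pair values were averaged per gene and each gene was tested against 0 with limma 3.58.1 in R 4.3.3 (lmFit and eBayes, two-sided, Benjamini-Hochberg over 4299 genes, threshold 0.05); limma's intervals are moderated. Those of the catalytic differences use Student's distribution over 5 pairs. The fit was tested on simulated data. Gene symbols of the platform annotation were brought up to date with RefSeq, where 12009 of 12143 single symbols matched by Entrez identifier. Mice are numbered separately, so the p-values cover differences between pairs of mice. Pairing comes from the labels: both arrays of pairs 2 to 5 name the same mouse per genotype, and those of pair 1 name the same mouse numbers with genotypes exchanged, so there it is an assumption. Members, lists and tests were chosen with earlier results of these data known. All members are named in the text, with full values for some (the 5 inducible genes, Psmb5, Psmb6, Psmb7, members with unadjusted p under 0.05 and the extremes of each class), and, in other lists, at most 3 genes of smallest p; others named, such as Psmb1, Psmb2, Psmd4, Psmd14, Tap1, Vcp and Cd4, were chosen after their values were seen. Alternatives were leaving out pairs, array-level fits, single orientations, filters, scalings, probe choice and the male pairs alone.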

Additional observations from a re-analysis of the deposited data

Results flagged for a closer look

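A single pair stood apart from the other pairs for 2 proteasome genes. Psmb7 read 0.88 in pair 1, the female pair, against -0.12 to 0.13 in the others, and Psma5, an alpha ring subunit, read 0.54 in pair 2 against -0.20 to -0.01 in the others. These were 2 of 40 groups of 4 or 5 values examined, and chance sets apart about 1 in 20.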

How the results depend on the processing

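Under all 18 alternatives that refit the genes, 0 proteasome genes were called. The count over all genes was 35 and depended on the setting: it was between 0 and 17 with single pairs left out (0 without pair 3 and without pair 4), 7 when either array of a pair was enough, and 99 with double-null RNA in channel 2 alone, where 90 were higher and 9 lower; the cause was not tested. It was 29 in an array-level fit with the mouse pair as a block and 51 without the block, and the block changed no call among proteasome genes. The share of higher calls also moved, with 27 of 35 higher in the pair means and 12 of 29 in the blocked fit. Myd88 kept its direction in all alternatives run but passed the threshold in 10 of 18, with adjusted p of 0.0558 to 0.124 when a pair was left out. The subunits and PA28 genes with intervals inside 1.5-fold numbered 27 of 34 with double-null RNA in channel 1 alone and 25 of 29 in the male pairs alone. The median of the constitutive list was 0.10 when it held 20S subunits alone. Without Psme2b, an alternative chosen after the data were seen, the inducible median was 0.07. Among 286 values of the proteasome genes described in full, none of which was called, 21 had the other sign under an alternative. Trended empirical Bayes was not run because ratios carry no intensity. Signal over background is unknown. The number of arrays limits the precision.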
